A study of Homo sapiens with 9 samples.

Results

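The G1 cyclins and the cyclin-dependent kinase (CDK) inhibitors were followed as 10 genes, taken from the processed table by gene symbol. They are the D cyclins CCND1, CCND2 and CCND3, the E cyclins CCNE1 and CCNE2, the CIP/KIP inhibitors CDKN1A and CDKN1B, and the INK4 inhibitors CDKN2A, CDKN2B and CDKN2C. All 10 were among the 27407 features of the table, and 8 of them were among the 18767 features with enough counts to be tested. The libraries were RNA sequencing libraries of Weri-RB1/CRP, labelled as a retinoblastoma cell line with resistance to carboplatin. Cells carried the short hairpin RNA shSNHG1#1 (n = 3) or shSNHG1#2 (n = 3), both aimed at the long noncoding RNA SNHG1, or the control hairpin shNC (n = 3). All 9 libraries came from the resistant line, and the labels name no carboplatin exposure in any group and no separate clones or cultures for the replicates. The p-values therefore set group differences only against the spread between these samples, and that spread may be technical.

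D cyclins bind CDK4 and CDK6 and E cyclins bind CDK2, and these kinases phosphorylate the retinoblastoma protein, which releases E2F transcription factors and lets cells enter S phase. INK4 proteins block CDK4 and CDK6, while CIP/KIP proteins block CDK2 complexes and also help D cyclins to assemble with their kinases. Retinoblastoma usually arises through loss of RB1, the gene of the retinoblastoma protein, and the Weri-RB1 line is known for lacking it. Much of the control of these proteins lies in their degradation, which transcript levels do not show.

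Promoter sequences of 3 members with a single annotated start site are shown because their transcripts moved by the largest fold among well-measured members (CCNE1), stood highest (CDKN1A) or moved the other way (CDKN1B). They are from RefSeq on GRCh38.p14, run from 250 bases before the start site to 50 after it, and read 5′ to 3′. Capitals mark GC boxes, the letters GGGCGG on either strand, to which SP1-family factors bind. All 3 lie on the plus strand, at chr19:29811741-29812040 for CCNE1, chr6:36678464-36678763 for CDKN1A and chr12:12717118-12717417 for CDKN1B.
CCNE1: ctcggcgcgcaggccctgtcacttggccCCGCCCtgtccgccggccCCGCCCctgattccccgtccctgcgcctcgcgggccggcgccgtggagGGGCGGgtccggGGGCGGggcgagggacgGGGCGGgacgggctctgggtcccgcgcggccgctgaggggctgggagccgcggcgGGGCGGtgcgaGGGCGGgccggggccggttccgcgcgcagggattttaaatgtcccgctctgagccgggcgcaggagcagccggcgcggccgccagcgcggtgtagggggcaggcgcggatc
CDKN1A: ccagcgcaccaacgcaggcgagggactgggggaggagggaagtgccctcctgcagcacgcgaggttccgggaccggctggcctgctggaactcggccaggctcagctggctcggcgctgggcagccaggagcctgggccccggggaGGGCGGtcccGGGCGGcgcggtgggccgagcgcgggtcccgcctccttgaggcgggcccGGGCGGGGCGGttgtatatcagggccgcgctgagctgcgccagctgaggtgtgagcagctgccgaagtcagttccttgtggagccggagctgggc
CDKN1B: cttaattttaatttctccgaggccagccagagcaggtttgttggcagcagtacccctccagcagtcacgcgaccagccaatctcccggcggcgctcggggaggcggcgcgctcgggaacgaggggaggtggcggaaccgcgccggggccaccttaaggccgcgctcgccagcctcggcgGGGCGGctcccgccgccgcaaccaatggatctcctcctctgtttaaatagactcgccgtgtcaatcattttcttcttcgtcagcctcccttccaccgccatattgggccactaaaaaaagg

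The CCNE1 window held 7 GC boxes, the CDKN1A window 4, of which a neighbouring pair overlaps, and the CDKN1B window 1. Of 35116 RefSeq promoter windows of 300 bases, 45.0% held at least 1 GC box. Of 10 members, 7 had an entry that was used, with 12 windows in all, and 9 of these windows held a GC box. CCND1, CCND2 and CCNE2 had no window in the search, which left out any entry on the chromosome of CCNE2. The letters TTTNNCGC, a loose form of the E2F site searched on both strands, were in 0 of the 12 windows and in 6.89% of all windows. The E-box CACGTG was in 7.26% of all windows, and among the members in windows at 2 of the 3 CDKN2C start sites, where it overlaps the hypoxia response core ACGTG found in 21.4% of all windows. These are matches of letters and not measured binding.

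Each library held 21502093 to 21606498 estimated counts. SNHG1 was not analysed here, so the knockdown is not checked by these values. Most photoreceptor markers went against the label. Of 13 photoreceptor and retinoblastoma markers, 11 stayed below 1 FPKM in every library, and CRX did not exceed 0.03 FPKM (a level that corrects the fragment count for transcript length and library depth). The other 2 were present, GNAT2, a cone transducin gene, at 15.97 to 19.56 FPKM and THRB, a thyroid hormone receptor gene, at 1.63 to 2.43 FPKM. RB1, which the Weri-RB1 line is known for lacking, lay between 12.93 and 14.69 FPKM over all libraries and so also went against the label. The reason was not tested. Summed levels of 8 epithelial markers ran from 1594 to 1692 FPKM with shSNHG1#1, from 1605 to 1693 FPKM with shSNHG1#2 and from 1794 to 1797 FPKM with shNC. KRT8 and KRT18 made up most of these sums. The 8 markers went both ways, with 2 higher and 4 lower with shSNHG1#1 and 2 higher and 5 lower with shSNHG1#2. Of all tested features, 24.5% were higher and 23.5% lower with shSNHG1#1, and 23.3% and 22.8% with shSNHG1#2. The 2 of 8 that were higher lie near these shares. EPCAM rose 1.98-fold and 1.85-fold and CLDN4 1.99-fold and 1.90-fold, while ELF3 fell 2.04-fold and 1.97-fold. The summed glia and neuron markers lay between 51.04 and 62.33 FPKM and the pigment epithelium markers, mostly BEST1, between 53.77 and 93.94 FPKM. The leukocyte markers, mostly CD68, summed to 88.77 to 100.67 FPKM with shSNHG1#1, 125.09 to 127.66 FPKM with shSNHG1#2 and 271.47 to 288.82 FPKM with shNC. Other leukocyte markers did not all follow CD68. CD14 rose 1.79-fold with shSNHG1#1 (edgeR adjusted p = 0.000947) and did not pass with shSNHG1#2 (log2 fold change 0.29). PTPRC, between 0.03 and 0.42 FPKM, fell with shSNHG1#2 (log2 fold change -2.14, edgeR adjusted p = 0.00338). With shSNHG1#1 it did not pass (log2 fold change 0.25). LYZ passed with neither hairpin (log2 fold change 1.23 and 0.24). The part of these cell types in the results was not tested. In bulk samples fewer cells of a type and less RNA per cell cannot be told apart.

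One library stood apart. In shSNHG1#1 replicate 1, 7 fibroblast markers summed to 23.94 FPKM, against 5.74 and 6.35 FPKM in the other shSNHG1#1 libraries, 5.49 to 6.63 FPKM with shSNHG1#2 and 2.92 to 4.25 FPKM with shNC. DCN, which encodes the matrix proteoglycan decorin, was at 9.80 FPKM there and at most 0.81 FPKM in the other 8 libraries. LYZ, the lysozyme gene of myeloid cells, was at 6.06 FPKM there and at most 2.32 FPKM elsewhere. CD68 did not follow LYZ, at 90.03 FPKM there and 87.40 and 83.46 FPKM in the other shSNHG1#1 libraries. With shNC, CD68 lay between 268.04 and 285.53 FPKM. The results for shSNHG1#1 are therefore also given without this library where it bears on them.

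The members fell into a well-expressed and a nearly silent set. By level per transcript length, the order with shNC was CDKN1A, CCND3, CDKN1B, CCND1, CCNE1, CDKN2C, CCNE2, CCND2, CDKN2A and CDKN2B. CCND3 and CDKN1B were neighbours in that order whose shNC libraries overlapped, and so were the last 4 genes. CDKN1A stood above 97.8% of the 23603 features with a symbol in shNC, CCND3 above 94.2%, CDKN1B above 93.8% and CCND1 above 93.1%. CCNE1 stood above 64.0% and CDKN2C above 58.8%. With both hairpins the first 6 genes kept clear of each other, and CDKN1B stood in rank 4, below CCND1, whereas with shNC it stood in rank 3.

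**Figure D1:**
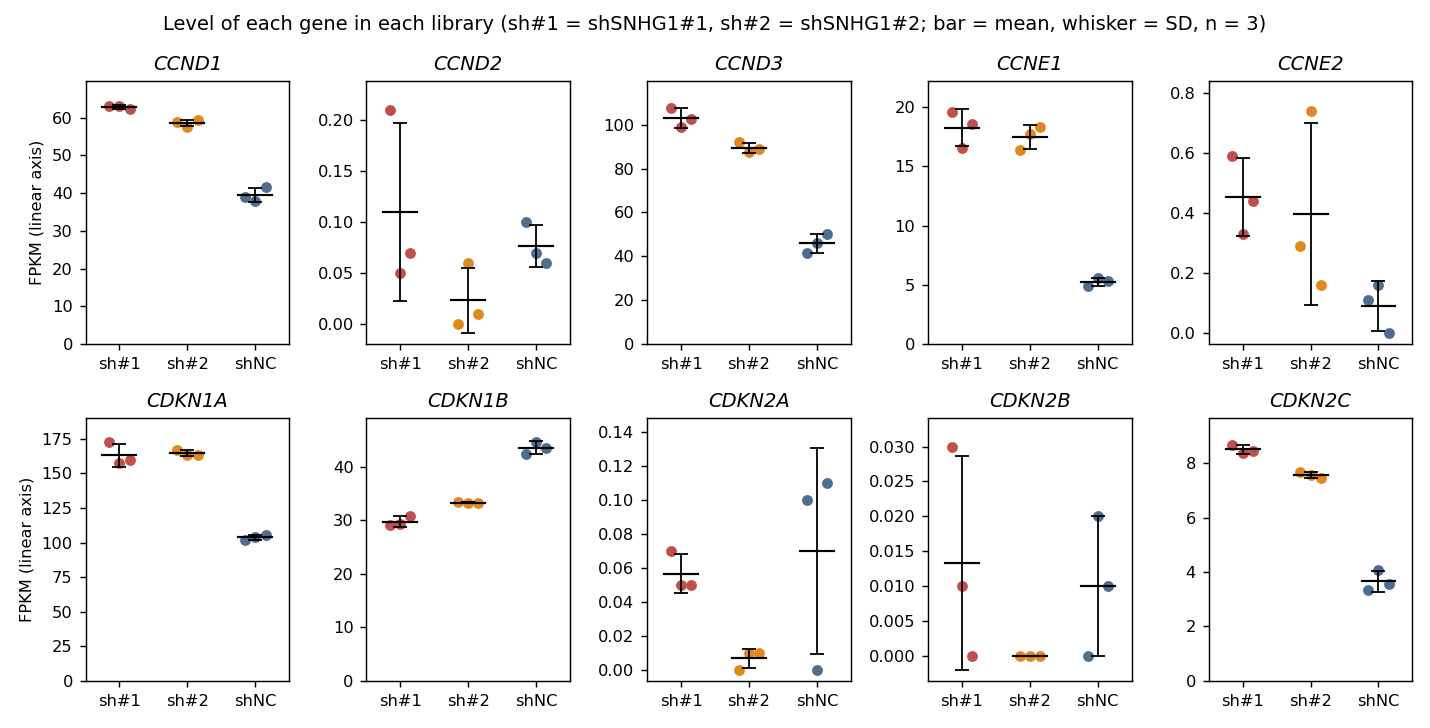
FPKM of each of the 10 genes (linear vertical axes that differ between panels) in each of the 9 libraries, with shSNHG1#1, shSNHG1#2 and shNC from left to right. Points are libraries, lines are means and whiskers are SD. CCND1, CCND3, CCNE1, CDKN1A and CDKN2C lie higher with both hairpins, CDKN1B lies lower, and CCND2, CCNE2, CDKN2A and CDKN2B stay below 1 FPKM throughout.

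The control hairpin served as the reference for each SNHG1 hairpin. With shSNHG1#1, 6 of the 8 tested members were higher and 1 was lower than with shNC by edgeR's quasi-likelihood test with Benjamini-Hochberg adjustment over all features (adjusted p below 0.05). In that comparison 48.1% of all tested features passed, 24.5% higher and 23.5% lower. With shSNHG1#2, 5 members were higher and 1 was lower, where 46.2% of all features passed, 23.3% higher and 22.8% lower. With shSNHG1#2, 60.9% of the passing features were higher when counts were scaled by library totals, against 50.5% with the scaling used here, and the counts of members did not differ between these scalings. CCNE2 had enough counts in 3 of 3 libraries of each hairpin against SNHG1 but in 1 of 3 shNC libraries, so it was tested only through the groups where it is high. Of the 7 other tested members, 5 were higher and 1 lower with each hairpin, and their median log2 fold change was 0.62 with shSNHG1#1 and 0.60 with shSNHG1#2, beside 0.023 and 0.011 over all features. By normalised counts, the libraries of 5 of these 7 members lay above all shNC libraries with each hairpin, and those of CDKN1B lay below. With shSNHG1#2 those of CCND2 also lay below. No shSNHG1#2 library reached the minimum count of 10 for CCND2, so it was tested there only through the groups where it is higher. Such groups without overlap were found for 56.3% and 55.8% of all features. Both comparisons share the shNC libraries. In both, CCND1, CCND3, CCNE1, CDKN1A and CDKN2C rose and CDKN1B fell.

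**Figure D2:**
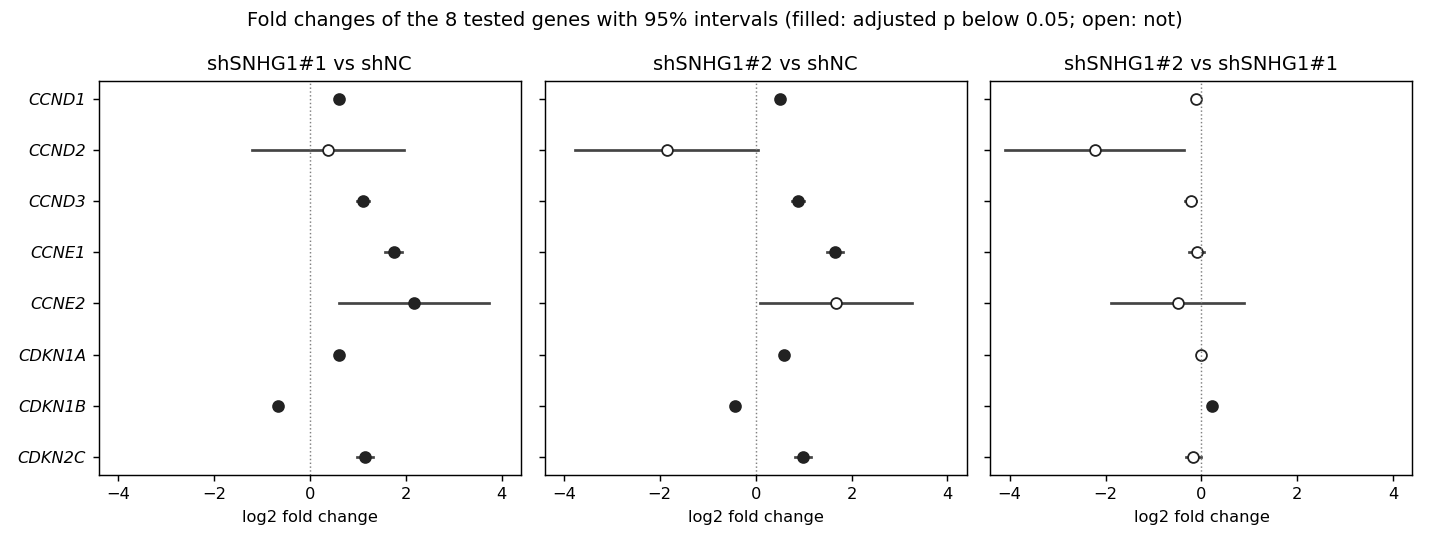
Log2 fold changes (horizontal axis) of the 8 tested genes for shSNHG1#1 against shNC, shSNHG1#2 against shNC and shSNHG1#2 against shSNHG1#1. Bars are 95% intervals, filled points passed an adjusted p of 0.05 and open points did not. CCNE1 lies at 1.75 and 1.65 against shNC, CDKN1B at -0.66 and -0.43, and the intervals of CCND2 and CCNE2 are wide.

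Among the D cyclins, the ones that start G1 progression in response to growth signals, CCND3 was the most abundant. CCND3 had 107.65, 98.67 and 102.44 FPKM with shSNHG1#1, 92.03, 87.63 and 88.91 FPKM with shSNHG1#2, and 41.66, 45.95 and 50.22 FPKM with shNC. All libraries of either hairpin lay above all shNC libraries, as they did for 29% of features with shSNHG1#1 and 28.3% with shSNHG1#2. CCND3 rose 2.15-fold with shSNHG1#1 (log2 fold change 1.11, SE 0.05, adjusted p = 4.43e-08) and 1.85-fold with shSNHG1#2 (log2 fold change 0.89, SE 0.05, adjusted p = 3.26e-07). In size, its change exceeded that of 93.4% and 90.4% of features.

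CCND1, whose cyclin is the most often amplified of the family in human cancers, had 63.03, 63.10 and 62.19 FPKM with shSNHG1#1, 58.85, 57.66 and 59.27 FPKM with shSNHG1#2, and 38.96, 38.04 and 41.68 FPKM with shNC. The groups did not overlap. It rose 1.53-fold with shSNHG1#1 (adjusted p = 1.33e-07) and 1.41-fold with shSNHG1#2 (adjusted p = 8.71e-07), less than CCND3 in both.

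The D cyclins thus summed to 165.8 ± 4.63 FPKM with shSNHG1#1, 148 ± 2.77 FPKM with shSNHG1#2 and 85.58 ± 5.77 FPKM with shNC (SD, n = 3 each). CCND3 made up 62.1% ± 1.02 of that sum with shSNHG1#1, 60.4% ± 0.513 with shSNHG1#2 and 53.6% ± 1.75 with shNC. No library of either hairpin had a CCND3 share within the shNC range of 51.6% to 54.7%.

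**Figure D3:**
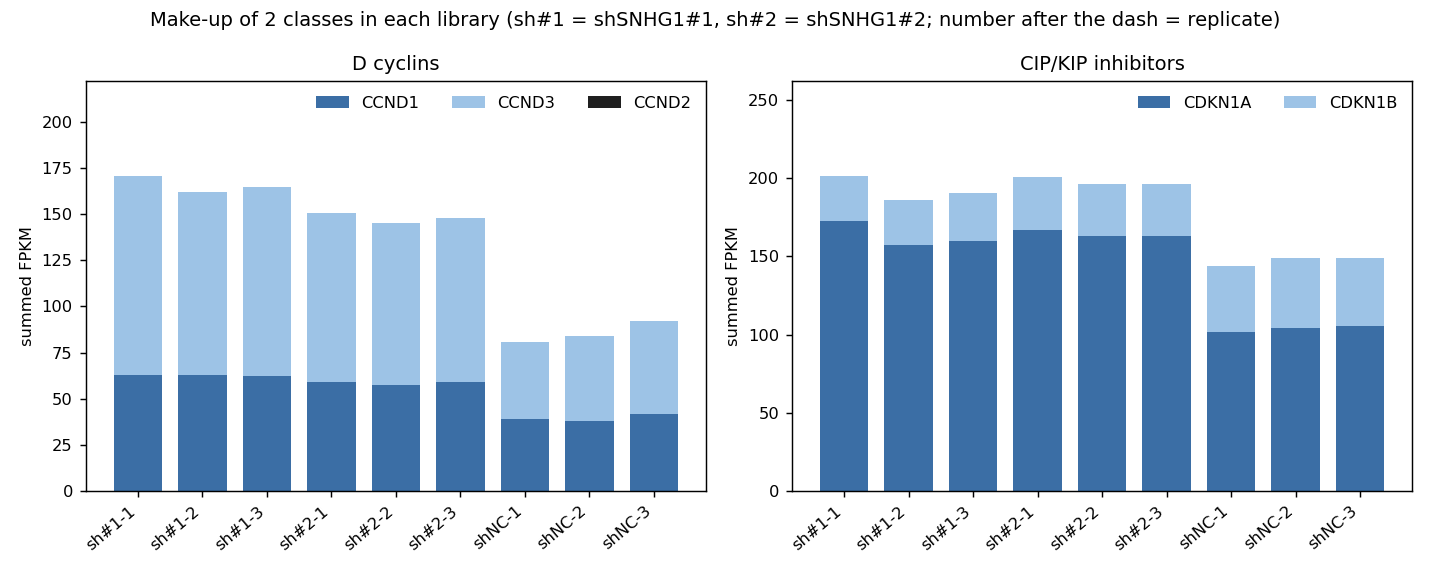
Summed FPKM (vertical axes from 0) of the D cyclins and of the CIP/KIP inhibitors in each library, stacked by gene, with shSNHG1#1, shSNHG1#2 and shNC from left to right. The D cyclin sum runs from 145.35 to 170.89 FPKM with the hairpins against SNHG1 and from 80.72 to 91.96 FPKM with shNC, CCND2 is too low to be seen, and CDKN1B takes a smaller part of the CIP/KIP sum with both hairpins.

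CCND2 was nearly silent. Its estimated counts were 27, 6 and 10 with shSNHG1#1, 0, 7 and 1.53 with shSNHG1#2, and 13, 11 and 8 with shNC, and no library exceeded 0.21 FPKM. The highest count was in shSNHG1#1 replicate 1, the library with a raised sum of fibroblast markers and raised LYZ, whose part in this value was not tested. CCND2 did not pass in either comparison. Its log2 fold change was 0.38 (95% interval -1.21 to 1.96) with shSNHG1#1, and -0.47 without replicate 1 (adjusted p = 0.683). With shSNHG1#2 it was -1.85 (-3.76 to 0.06, adjusted p = 0.105), and -3.32 without shSNHG1#2 replicate 2 (adjusted p = 0.0313). No shSNHG1#2 library reached the minimum count of 10, so CCND2 was tested there only through the groups where it is higher. Its call without replicate 2 describes these libraries and supports no count of members.

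CCNE1 showed the largest change among the well-expressed members. Cyclin E1 activates CDK2 late in G1. CCNE1 had 19.62, 16.55 and 18.58 FPKM with shSNHG1#1, 16.38, 17.71 and 18.33 FPKM with shSNHG1#2, and 4.87, 5.56 and 5.36 FPKM with shNC. The hairpin groups overlapped each other and both lay well clear of shNC. The log2 fold change was 1.75 (SE 0.08, adjusted p = 2.4e-08) with shSNHG1#1, 1.68 without its replicate 1, and 1.65 (SE 0.08, adjusted p = 5.15e-08) with shSNHG1#2. Its size exceeded that of 98.1% and 97.9% of all features.

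CCNE2, which encodes the related cyclin E2, had 50.05, 29.59 and 42.76 estimated counts with shSNHG1#1, 20.49, 41.23 and 26.85 with shSNHG1#2, and 6.79, 19.12 and 0 with shNC. It remained below 1 FPKM in every library, and CCNE1 gave 97.6%, 97.8% and 98.3% of the summed E cyclin FPKM with shSNHG1#1, shSNHG1#2 and shNC. Over each group, CCNE2 had 4.73 times as many counts with shSNHG1#1 as with shNC (95% exact interval 3.08 to 7.53, counting error only) and 3.39 times as many with shSNHG1#2 (2.17 to 5.47). By edgeR's test it passed with shSNHG1#1 (log2 fold change 2.18, SE 0.71, adjusted p = 0.0259) but not with shSNHG1#2 (log2 fold change 1.68, SE 0.72, adjusted p = 0.0793). The call with shSNHG1#1 was lost when shNC replicate 1 was left out (adjusted p = 0.0817). It was also lost without replicate 1 (adjusted p = 0.0689) or replicate 3 (adjusted p = 0.0597) of shSNHG1#1. With shSNHG1#2, CCNE2 passed without shNC replicate 2 (log2 fold change 2.95, adjusted p = 0.013) and with DESeq2 (adjusted p = 0.0158). As CCNE2 was tested through the groups where it is high, its calls describe these libraries and support no count of members. The transcript length implied by its counts and FPKM varied 3.01-fold between libraries.

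The sum of the E cyclins made up 10.1% ± 0.599 of all G1 cyclin FPKM with shSNHG1#1, 10.8% ± 0.715 with shSNHG1#2 and 5.90% ± 0.438 with shNC (SD, n = 3 each). The E cyclin share was thus larger with both hairpins than in any shNC library, where it reached at most 6.37%.

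The CIP/KIP inhibitors moved in opposite directions. CDKN1A, which encodes p21, a CDK inhibitor induced by p53, had 172.55, 157.13 and 159.60 FPKM with shSNHG1#1, 167.14, 163.23 and 163.33 FPKM with shSNHG1#2, and 101.79, 104.16 and 105.62 FPKM with shNC. It was the most abundant member in every group, and the libraries of both hairpins lay above those of shNC. CDKN1A rose 1.52-fold with shSNHG1#1 (log2 fold change 0.60, SE 0.04, adjusted p = 2.81e-07) and 1.51-fold with shSNHG1#2 (log2 fold change 0.60, SE 0.04, adjusted p = 3.58e-07). In size, this exceeded 78.2% and 79.8% of features.

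CDKN1B, which encodes p27, an inhibitor that holds CDK2 in check in resting cells, had 29.13, 29.28 and 30.90 FPKM with shSNHG1#1, 33.53, 33.23 and 33.30 FPKM with shSNHG1#2, and 42.35, 44.74 and 43.61 FPKM with shNC. The 3 groups were separate, with shSNHG1#1 lowest. Libraries below all those of shNC were seen for 27.4% of features with shSNHG1#1 and 27.4% with shSNHG1#2. CDKN1B fell 1.58-fold with shSNHG1#1 (log2 fold change -0.66, SE 0.04, adjusted p = 8.34e-08) and 1.35-fold with shSNHG1#2 (log2 fold change -0.43, SE 0.03, adjusted p = 2.5e-06). From FPKM the log2 fold changes were -0.55 and -0.38.

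The ratio of CDKN1A to CDKN1B FPKM was 5.49 ± 0.393 with shSNHG1#1, 4.93 ± 0.0442 with shSNHG1#2 and 2.38 ± 0.0497 with shNC (SD, n = 3 each). The ratio of CCNE1 to CDKN1B, a cyclin and an inhibitor of the same kinase, was 0.613 ± 0.0551, 0.524 ± 0.0319 and 0.121 ± 0.00501. Both ratios were higher in every library of the hairpins against SNHG1 than in any shNC library. That follows from the changes above, as each ratio sets a member that rose over CDKN1B, which fell. CDKN1A, the more abundant CIP/KIP inhibitor, rose. The CIP/KIP sum was 193 ± 7.90 FPKM with shSNHG1#1, 198 ± 2.38 FPKM with shSNHG1#2 and 147 ± 2.85 FPKM with shNC.

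Of the INK4 inhibitors, CDKN2C alone was well detected. CDKN2C, which encodes p18, had 8.68, 8.38 and 8.46 FPKM with shSNHG1#1, 7.67, 7.58 and 7.46 FPKM with shSNHG1#2, and 3.33, 4.09 and 3.57 FPKM with shNC. The groups did not overlap, and replicates within a hairpin group lay close together. CDKN2C rose 2.22-fold with shSNHG1#1 (log2 fold change 1.15, SE 0.08, adjusted p = 4.61e-07) and 1.98-fold with shSNHG1#2 (log2 fold change 0.98, SE 0.08, adjusted p = 2e-06). In size, this exceeded 94.0% and 92.4% of features.

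CDKN2A encodes p16 and, from another reading frame, ARF, which stabilises p53. A count per gene cannot tell them apart. CDKN2A had 1.28, 1.00 and 2.07 estimated counts with shSNHG1#1, 0, 2.39 and 0.46 with shSNHG1#2, and 1.83, 1.07 and 3.24 with shNC. CDKN2B, which encodes p15, an inhibitor induced by TGF-beta, had 2.72, 1.00 and 0 counts with shSNHG1#1, 0 in each shSNHG1#2 library, and 0, 2.00 and 1.00 with shNC. Both genes were thus at or near 0 in all 9 libraries, at no more than 0.11 FPKM, and were not tested. A difference between groups was not detectable at this depth, and reads of these similar neighbouring genes may be shared.

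On either side of this pair on the chromosome, transcripts were present. MTAP, the gene of a methionine salvage enzyme, had 7.59, 7.03 and 6.02 FPKM with shSNHG1#1, 6.94, 7.18 and 6.92 FPKM with shSNHG1#2, and 7.27, 7.09 and 5.83 FPKM with shNC. By counts it was 1.14-fold and 1.15-fold higher (adjusted p = 0.00588 and 0.00439), a call that FPKM values did not give (adjusted p = 0.834 and 0.659). DMRTA1, a transcription factor gene, had 0.61, 0.40 and 0.47 FPKM with shSNHG1#1, 0, 0.12 and 0.50 FPKM with shSNHG1#2, and 2.61, 2.81 and 2.48 FPKM with shNC. Its log2 fold change was -2.47 with shSNHG1#1 (adjusted p = 0.00393) and -3.71 with shSNHG1#2 (adjusted p = 0.000598), and the log2 fold change was -5.45 without shSNHG1#2 replicate 3. The antisense gene CDKN2B-AS1, which overlaps the pair, did not exceed 0.05 FPKM in any library. The DMRTA1 folds rest on low counts, and the use of strand in counting is not given in the sources used here.

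The hairpins against SNHG1 were also set against each other. CDKN1B was the 1 member of 8 that passed, at 33.53, 33.23 and 33.30 FPKM with shSNHG1#2 and 29.13, 29.28 and 30.90 FPKM with shSNHG1#1. It was 1.17-fold higher with shSNHG1#2 (log2 fold change 0.23, SE 0.04, adjusted p = 0.00598), where 3.12% of features passed, 2% higher and 1.12% lower. By normalised counts, 1 member lay above all shSNHG1#1 libraries and 3 lay below, while 20.8% of features had no overlap, 10.7% above and 10.1% below. By library totals alone, 74.8% of the passing features were higher, against 64% with the scaling used here. No member was lower by edgeR, while 4, CCND2 among them, were lower at an unadjusted p below 0.05, as were 7.43% of all features. CCND2 was tested here only through the groups where it is higher. With DESeq2, 2 were lower, CCND1 and CCND3 (adjusted p = 0.016 and 0.000332), as were 4.12% of the 8942 features to which it gave an adjusted p.

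CCND3 lay close to the threshold, with 92.03, 87.63 and 88.91 FPKM with shSNHG1#2 and 107.65, 98.67 and 102.44 FPKM with shSNHG1#1 (log2 fold change -0.22, 95% interval -0.33 to -0.10, edgeR adjusted p = 0.0508). It passed in edgeR without a filter on low counts (adjusted p = 0.0488) and with only the 6 libraries compared (0.0295). For CDKN1A the log2 fold change was -0.0035 (95% interval -0.08 to 0.08), and for CCNE1 it was -0.10 (-0.25 to 0.06). The interval for CCNE2 was far wider, -1.89 to 0.89, and that for CCND2 ran from -4.09 to -0.36 (adjusted p = 0.219).

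The kinases that the members bind or block did not all move. Of 7 tested genes of G1 kinases and their activators, 2 rose and 0 fell in each comparison with shNC. Of all tested features, 24.5% rose and 23.5% fell with shSNHG1#1, and 23.3% rose and 22.8% fell with shSNHG1#2. The 2 of 7 that rose lie near these shares, against which the counts of the lists below are also to be read. CDC25A, the phosphatase that activates CDK2, rose 3.69-fold to 2.28 ± 0.101 FPKM with shSNHG1#1 and 3.64-fold to 2.23 ± 0.111 FPKM with shSNHG1#2, against 0.600 ± 0.0458 FPKM with shNC (SD, n = 3 each; edgeR adjusted p = 1.12e-07 and 1.58e-07). CDK2, the partner of the E cyclins, rose 1.74-fold to 18.9 ± 0.175 FPKM and 1.68-fold to 18.4 ± 1.12 FPKM, against 10.5 ± 0.764 FPKM. CDK4, a partner of the D cyclins, was at 53.1 ± 4.53, 49.2 ± 1.83 and 46.7 ± 1.57 FPKM with shSNHG1#1, shSNHG1#2 and shNC and did not pass (log2 fold change 0.09 and -0.03). With shSNHG1#1 it passed by library totals (adjusted p = 0.0383), and with shSNHG1#2 its sign turned under that scaling. CDK6 did not pass either (log2 fold change 0.10 and 0.13, adjusted p = 0.191 and 0.0892), but did with shSNHG1#2 by library totals (adjusted p = 0.0227) or without shNC replicate 1 (0.0456). From FPKM, 5 of the 7 genes were higher with shSNHG1#1. The shares of all features above belong to edgeR with the scaling used here. They are not the background of counts from FPKM or other alternatives, here or in the lists below.

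Of 3 other CDK inhibitors, 3 rose with shSNHG1#1 and 2 with shSNHG1#2, and with shSNHG1#1 the count ran from 1 to 3 over the 13 alternatives. CDKN3, a phosphatase that acts on CDK2, rose 1.75-fold and 1.57-fold, to 35.6 ± 1.75 and 32.2 ± 2.82 FPKM against 19.4 ± 0.733 FPKM (adjusted p = 7.33e-06 and 4.59e-05). CDKN2D, which encodes the INK4 protein p19, was at 2.15 ± 0.0902, 2.32 ± 0.104 and 1.36 ± 0.267 FPKM and passed with both hairpins (adjusted p = 0.0236 and 0.0088). With shSNHG1#1 its call was lost with DESeq2 (adjusted p = 0.0644), with only the 6 libraries compared, and when replicate 2 of shNC or replicate 1 or 2 of shSNHG1#1 was left out (adjusted p up to 0.0901). CDKN1C, the third CIP/KIP gene, was at 0.977 ± 0.245, 0.720 ± 0.4 and 0.553 ± 0.107 FPKM. It passed with shSNHG1#1 (adjusted p = 0.0386) but not in 5 of the 6 fits that left out 1 library (adjusted p up to 0.117). The call was also lost with DESeq2 (adjusted p = 0.0556), without a filter (0.0565), with the replicate number as a block (0.0595) and from FPKM (0.112). CDKN1C did not pass with shSNHG1#2 (log2 fold change 0.27, adjusted p = 0.544).

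Downstream, among 13 RB and E2F genes 7 rose with each hairpin, and 2 fell with shSNHG1#1 and 1 with shSNHG1#2. Over the 13 alternatives, 5 to 8 rose and 1 to 2 fell with shSNHG1#1, and 5 to 9 rose and 0 to 2 fell with shSNHG1#2. E2F1 rose 1.67-fold and 1.77-fold and E2F2 3.05-fold and 2.81-fold, while RB1 itself did not pass (log2 fold change -0.05 and 0.01). E2F7 and E2F8, which repress E2F targets, rose 1.84-fold and 1.86-fold with shSNHG1#1 and 2.05-fold and 1.75-fold with shSNHG1#2. Of 20 S phase genes that E2F factors regulate, 19 rose with each hairpin and 0 fell, with a median log2 fold change of 0.68 and 0.62. MCM4 and MCM3, subunits of the replicative helicase, rose 2.21-fold and 1.90-fold with shSNHG1#1 and 2.08-fold and 1.86-fold with shSNHG1#2. CDC6, which loads that helicase, rose 1.98-fold and 2.00-fold and the nucleotide reductase gene RRM2 2.08-fold and 1.96-fold, and CDT1 did not pass (log2 fold change 0.03 and 0.02).

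**Figure D4:**
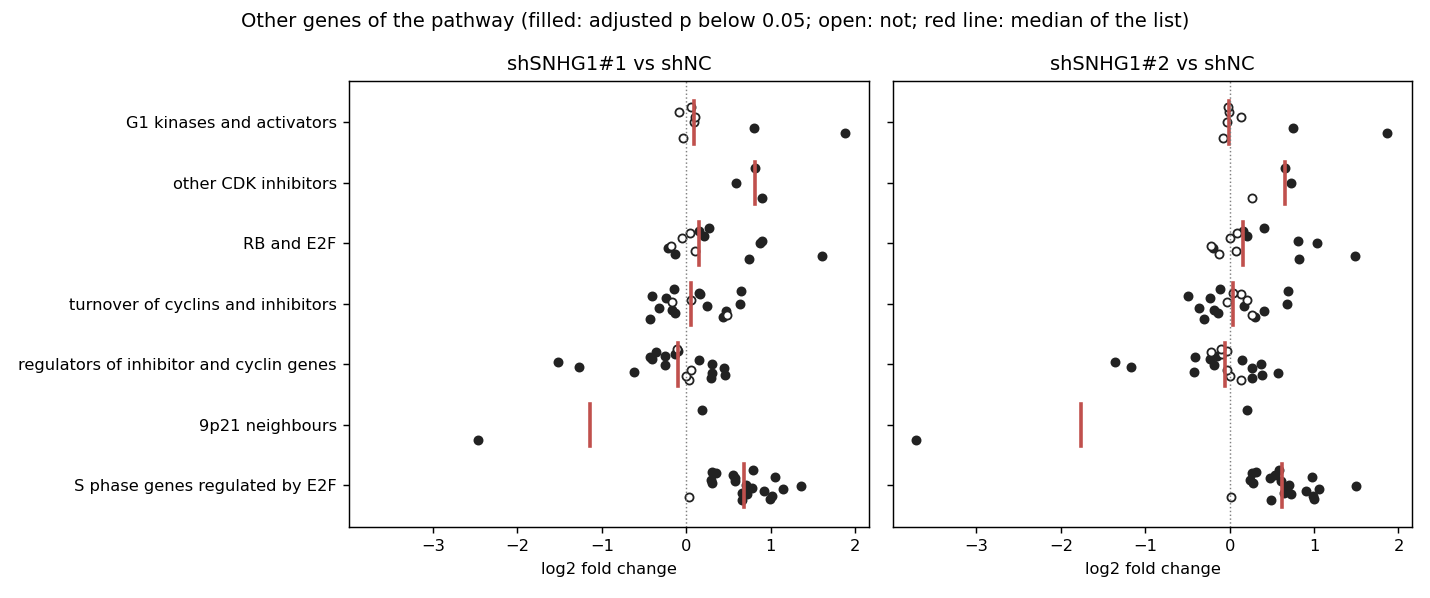
Log2 fold changes (horizontal axes, same scale) against shNC of the tested genes of 7 lists, with shSNHG1#1 on the left and shSNHG1#2 on the right. Each point is a gene, filled where its adjusted p was below 0.05, and the red line is the median of its list. The S phase genes lie above 0 with medians of 0.68 and 0.62, and the turnover genes spread on both sides.

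Genes that govern the turnover of cyclins and inhibitors went both ways. Of 17 tested, 7 rose and 7 fell with shSNHG1#1, and 5 rose and 7 fell with shSNHG1#2, or 8 and 4 by library totals. From FPKM, 8 rose and 3 fell with shSNHG1#1, and 7 rose and 3 fell with shSNHG1#2. The shares of all features given above do not belong to these alternatives. CKS1B, which helps the ubiquitin ligase subunit SKP2 to recognise p27, rose 1.36-fold to 108 ± 1.67 FPKM and 1.23-fold to 99.7 ± 1.05 FPKM, against 77.6 ± 2.36 FPKM (adjusted p = 7.39e-07 and 1.57e-05). DTL, a receptor that sends p21 for degradation in S phase, rose 1.56-fold and 1.60-fold. CUL3, a scaffold of ligases that target cyclin E, rose 1.39-fold and 1.33-fold, while CUL4B, a scaffold used with DTL, fell 1.25-fold and 1.29-fold. SKP2 itself, chosen after its values were seen, rose 1.57-fold and 1.61-fold. FBXW7, CUL1 and RBX1, of the same list and also named after their values were seen, fell with both hairpins. Their log2 fold changes were -0.238, -0.127 and -0.403 with shSNHG1#1 (edgeR adjusted p = 0.0161, 0.0153 and 0.002). With shSNHG1#2 they were -0.229, -0.143 and -0.488 (adjusted p = 0.0202, 0.00882 and 0.000617). SKP1 rose with shSNHG1#1 (log2 fold change 0.148, adjusted p = 0.00608) and did not pass with shSNHG1#2.

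Among 20 tested regulators of inhibitor and cyclin genes, 6 rose and 10 fell with shSNHG1#1, and 6 rose and 7 fell with shSNHG1#2. The oncogene MYC, whose product represses CDKN1A and activates CCND2 and other cyclin genes, fell 2.87-fold and 2.56-fold (adjusted p = 2.16e-10 and 5.96e-10). KLF6, a zinc finger factor that can induce CDKN1A, fell 2.41-fold to 17.9 ± 0.862 FPKM and 2.26-fold to 19.4 ± 0.127 FPKM, against 41.8 ± 0.836 FPKM. FOXO3, which induces CDKN1B, fell 1.54-fold to 5.18 ± 0.184 FPKM and 1.34-fold to 5.97 ± 0.407 FPKM, against 7.62 ± 0.315 FPKM (adjusted p = 6.31e-06 and 0.000112). SMAD3, the TGF-beta effector that acts on CDKN2B, fell 1.32-fold and 1.17-fold. Relatives of these factors went the other way, and are named after their values were seen. FOXO1 rose 1.24-fold and 1.49-fold (adjusted p = 0.00206 and 2.63e-05), and KLF4 rose by log2 fold changes of 0.45 and 0.27 (adjusted p = 6.98e-05 and 0.00292). MDM2, a p53 target also chosen after its values were seen, rose 1.24-fold and 1.29-fold (adjusted p = 0.00031 and 9.9e-05).

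By profile over the 9 libraries, each centred on its own mean log2 CPM, the genes nearest to CCNE1 among 15476 features were MPV17L2, WDR62 and ADGRE2, at distances of 0.24, 0.24 and 0.26. Their log2 fold changes were 1.75, 1.69 and 1.80 with shSNHG1#1 and 1.60, 1.54 and 1.64 with shSNHG1#2, close to those of CCNE1. No gene came close to CCNE2, whose nearest, ERV3-1, ZBTB32 and LOC101928344, lay at 2.14, 2.16 and 2.24. The nearest to CCND2, given after its values were seen, were LCP2, MMP25 and SPI1, at 1.29, 1.76 and 1.89. SPI1 encodes a transcription factor of myeloid cells and LCP2 an adaptor of leukocyte receptors. SPI1 had 2.10, 0.55 and 0.56 FPKM with shSNHG1#1, 0.29, 0.28 and 0.27 FPKM with shSNHG1#2, and 0.80, 0.61 and 0.80 FPKM with shNC. It was picked for its nearness to CCND2 over these libraries, so a shared highest library follows from that choice. CCND2 itself rests on low counts, and the source of its reads was not tested. These likenesses rest on libraries that share their groups and are descriptions.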

How the data were processed

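Per the labels, RNA was extracted with Trizol and libraries followed a BGI protocol. One deposited table gives an estimated count, not scaled, and an expression value for each feature in each library. The header does not name the unit of the latter. These deposited values were read as FPKM because the transcript length implied by count, value and library total differed by at most 1.12-fold between libraries for the 6 well-expressed members. A unit that differs from FPKM by a similar factor in each library would pass this check too, so the unit is an inference. Columns were matched to samples by the group and replicate in their names. Per the submitters' processing notes, which give no roles, the tools were RSEM 1.2.12, Bowtie2 2.2.5, DESeq2 1.4.5 and HISAT2 2.0.4. Build and annotation were not given in the sources used here.

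Rounded counts went into edgeR 4.0.16 under R 4.3.3 (TMM factors, filterByExpr with its minimum count of 10, quasi-likelihood F test over the 9 libraries, group term alone, Benjamini-Hochberg adjustment over 18767 features, threshold 0.05). Standard errors came from the F statistic. Alternatives used DESeq2 1.42.0, limma 3.58.1 on log2(FPKM + 0.1), other scalings and filters, a replicate block, and 1 library left out. Intervals for count ratios cover counting error only. Replicates of a group differed by more than sampling noise (chi-square per degree of freedom 3.06 to 6.50 over features with at least 50 counts). All 10 members are named, and from each of 7 pathway lists up to 4 genes with the smallest p against shNC. Members and lists were chosen with earlier results of these data known.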

Additional observations from a re-analysis of the deposited data

Results flagged for a closer look

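CDKN1B differed between the hairpins against SNHG1 by a test of the difference itself. Its level was 33.35 ± 0.157 FPKM with shSNHG1#2 and 29.8 ± 0.981 FPKM with shSNHG1#1 (SD, n = 3 each), a log2 fold change of 0.23 of shSNHG1#2 against shSNHG1#1 (edgeR adjusted p = 0.00598), higher in 3 of 3 libraries.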

How the results depend on the processing

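Against shNC, the calls of CCND1, CCND3, CCNE1, CDKN1A, CDKN1B and CDKN2C held under each of the 13 alternatives run for each hairpin. When 1 library was left out, the counts of members higher ran from 5 to 6 with each hairpin against SNHG1, differing by CCNE2 alone. Those lower ran from 1 to 1 with shSNHG1#1 and from 1 to 2 with shSNHG1#2, differing by CCND2 without shSNHG1#2 replicate 2. CCNE2 and CCND2 were tested there through the groups where they are high, so these ranges describe the libraries only. With shSNHG1#2 against shSNHG1#1, 2 members were lower with DESeq2, 1 without a filter and 1 with only the 6 libraries compared, against 0. The sign of CCND2 with shSNHG1#1 turned to -0.47 without replicate 1, in a range up to 0.73 over the libraries left out. The log2 fold change of CDKN1A between the hairpins turned to 0.015 by library totals, 0.0015 by DESeq2 size factors, 0.0015 by DESeq2, 0.014 from FPKM, and 0.037, 0.014 and 0.024 without shSNHG1#1 replicate 1, shSNHG1#2 replicate 2 and shSNHG1#2 replicate 3 (range -0.026 to 0.037). With shSNHG1#2 against shNC, CDK4 turned to 0.036 by library totals and 0.074 from FPKM, and CDKN1C to -0.11 without shSNHG1#2 replicate 1 (range up to 0.44). The causes were not tested. Library totals moved the median of all features by at most 0.065.

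With the replicate number as a block, 6 members were higher and 1 lower with shSNHG1#1, 5 and 1 with shSNHG1#2, and 1 and 0 between the hairpins, as without it. The 6 include CCNE2, which was tested only through the groups where it is high. The block ended 1 call among the genes named by rule, that of CDKN1C with shSNHG1#1. Same-numbered libraries correlated at -0.077 to 0.077 in their deviations from group means, so the numbers were not taken to pair the samples. Depth limits CCND2, CCNE2, CDKN2A and CDKN2B.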
